A study of Mus musculus with 6 samples.

Results

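The genes described here are 10 parts of the circadian clock, namely Per1, Per2, Per3, Cry1, Cry2, Dbp, Tef, Hlf, Nr1d1 and Nr1d2, measured in mouse dorsal root ganglia (DRGs). They were chosen by name and not by their values. All 10 were found among the 18193 genes that have a probe set listed for that gene alone, and they own 22 of the 45037 tested probe sets. Values are those of the brightest probe set of a gene wherever no dimmer one is named. Whole DRGs were compared between 3 Meis1cko mice and 3 control mice at P60, with 1 array per mouse. Meis1cko mice carry a floxed Meis1 allele, in which exon 8 lies between LoxP sites, and Cre driven by a fragment of the Nav1.8 promoter, which acts in most nociceptors but not in the glia, vessels or connective tissue of the same ganglion. The labels call the other mice control, and the study names Meis1 F/F littermates as controls only for its behavioural tests. The time of day at dissection, the light cycle and the sex of the mice on the arrays are not given in the sources used here.

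The circadian clock is a feedback loop of transcription that runs in most cells of the body, neurons and glia included. CLOCK and BMAL1 (gene Arntl, with Npas2 as a stand-in for Clock) bind E-boxes and switch on the Per and Cry genes, whose proteins return to the nucleus and repress them. A second loop runs through the nuclear receptors REV-ERBα (Nr1d1) and REV-ERBβ (Nr1d2), which repress Arntl and compete with the ROR activators, and the output runs through the PAR bZIP factors DBP, TEF and HLF, which activate D-boxes that the repressor NFIL3 also binds. In peripheral tissues of mice, Dbp, Nr1d1 and the Per genes peak at times of day when Arntl and Npas2 are low.

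The intensities were deposited in normalized form and not as logarithms, and the array medians lay between 62.5 and 65.5. Meis1, the targeted gene, had intensities of 64.2 to 72.1 in Meis1cko DRGs and 90.2 to 144 in control DRGs on its brightest probe set. All 8 sensory neuron markers examined reached the median of all tested probe sets (65.9), among them the peripherin gene Prph and the neurofilament gene Nefh, whereas 0 of the 3 markers of central oligodendrocytes did. The replicate 3 arrays of both genotypes stood apart from the other 4. On the log2 scale, the Actb control probe set at the 3′ end exceeded that at the 5′ end, a measure of how far labelling reached along a transcript, by 0.44 in Meis1cko and 0.42 in control DRGs of replicate 3, against 1.23 to 1.66 on the others. The main results are therefore also given without them.

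The start regions of the genes were searched for the letters of elements through which the loop is known to act, and for the cAMP response element. RefSeq start sites (GRCm38.p6) gave 11 windows for 9 of the 10 genes, all but Per2, and the 250 bases before each start were searched on both strands. The motifs were the E-box CACGTG, the weaker E-box variant CACGTT, the D-box searched as TTANGTAA, the ROR element, which REV-ERB proteins also bind, searched as TNGGTCA, and the cAMP response element TGACGTCA. An E-box was present before a start of 3 of the 9 genes (Per1, Cry1 and Tef) and of 6.86% of all 27025 genes. The variant was present in 3 genes (Cry1, Cry2 and Nr1d1) and in 4.5% of all genes, and the D-box in Per3 alone and in 2.44%. The letters TNGGTCA were present in 3 genes (Cry2, Per3 and Tef) and in 10.5%, and the cAMP response element in Hlf alone and in 1.77%. All 3 genes with TNGGTCA had it as TGACCAA on the strand of the gene, that is, with T as the open letter. These matches fit the search letters and were not shown to be ROR elements. By window, the E-box was present in 4 of the members' 11 and in 6.02% of all 32851. None of the 13 matches overlapped another, and the windows of Dbp and Nr1d2 held no match. A match is a description of the letters, and these arrays did not measure binding. One stretch for each of the 7 genes with a match is printed from 5′ to 3′ on the strand of the gene, with the matches in capitals, because these genes are compared over the arrays in what follows.
Per1, E-box, chr11:69098753-69098818, plus strand: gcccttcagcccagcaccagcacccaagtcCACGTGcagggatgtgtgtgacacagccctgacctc
Cry1, E-box variant and E-box, chr10:85185079-85185144, minus strand: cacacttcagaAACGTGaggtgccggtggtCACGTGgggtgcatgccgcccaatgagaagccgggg
Cry2, E-box variant, chr2:92434200-92434265, minus strand: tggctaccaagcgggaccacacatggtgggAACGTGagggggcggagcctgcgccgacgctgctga
Nr1d1, E-box variant, chr11:98775378-98775435, minus strand: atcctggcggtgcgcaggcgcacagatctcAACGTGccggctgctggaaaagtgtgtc
Tef, E-box, chr15:81802516-81802581, plus strand: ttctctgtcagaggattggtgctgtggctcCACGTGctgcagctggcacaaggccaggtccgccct
Per3, D-box, chr4:151044833-151044900, minus strand: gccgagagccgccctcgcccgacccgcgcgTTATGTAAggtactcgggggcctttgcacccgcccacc
Hlf, cAMP response element, chr11:90390918-90390956, minus strand: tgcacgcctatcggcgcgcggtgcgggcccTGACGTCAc

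The Period genes, which encode the repressors that accumulate during the day, had overlapping values in the genotypes. Per1, which also responds within hours to cAMP and glucocorticoids, had intensities of 307, 230 and 155 in the Meis1cko DRGs of replicates 1, 2 and 3, against 217, 264 and 196 in the control DRGs. The Meis1cko mice held both the highest and the lowest value, so that the groups overlapped, and the log2 difference (Meis1cko minus control throughout) was -0.01 (SE 0.25, 95% interval -0.60 to 0.58). Per2, a core repressor, had 104, 94.4 and 51.5 in Meis1cko DRGs and 94.7, 86.2 and 77.3 in control DRGs, a log2 difference of -0.11 (SE 0.26, interval -0.73 to 0.51). The low value of the Meis1cko replicate 3 array sets most of that spread, and the replicate 3 array was the lowest of its genotype in the controls too. Per3, which is dispensable for the rhythm but follows it, had 75.4, 79.5 and 63.8 in Meis1cko DRGs and 88.0, 75.7 and 65.8 in control DRGs. Its log2 difference was -0.07 (SE 0.15, interval -0.43 to 0.30), and again the replicate 3 array was the lowest in each genotype.

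The cryptochromes, which carry most of the repression of CLOCK and BMAL1, overlapped between the genotypes as well. Cry1, the later-peaking and stronger repressor, had intensities of 240, 249 and 145 in Meis1cko DRGs and 217, 247 and 192 in control DRGs. The log2 difference was -0.08 (SE 0.23, interval -0.61 to 0.45), and the Meis1cko replicate 3 array lay below all others. Cry2 had 575, 660 and 543 in Meis1cko DRGs and 648, 649 and 494 in control DRGs, with a log2 difference of -0.01 (SE 0.15, interval -0.37 to 0.36). Its lowest array was the replicate 3 control, and the other 5 lay within 543 to 660.

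The PAR bZIP output factors had overlapping values in the genotypes too. Dbp, usually among the genes of widest daily swing, had intensities of 190, 231 and 139 in Meis1cko DRGs and 213, 208 and 134 in control DRGs, a log2 difference of 0.02 (SE 0.25, interval -0.57 to 0.60). Both replicate 3 arrays lay below the other 4, by 0.59 on the log2 scale in Meis1cko and by 0.66 in control DRGs against the mean of replicates 1 and 2. The probe set of these values is of the type that Affymetrix marks as matching more than 1 transcript. Tef had 948, 1086 and 854 in Meis1cko DRGs and 1109, 1033 and 902 in control DRGs, and Hlf had 133, 125 and 96.7 in Meis1cko DRGs and 145, 112 and 114 in control DRGs. Their log2 differences were -0.08 (SE 0.14, interval -0.41 to 0.26) and -0.07 (SE 0.17, interval -0.47 to 0.33). For both genes the groups overlapped, and the lowest of the 6 values was the Meis1cko replicate 3 array.

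On the brightest probe sets and all 6 arrays, the REV-ERB genes had the largest differences of the 10, and these too lay within the spread between mice. Nr1d2 had intensities of 1602, 1865 and 1325 in Meis1cko DRGs and 1300.3, 1430.2 and 1281 in control DRGs. Replicates 1 and 2 of Meis1cko DRGs lay above every control mouse, and replicate 3 lay below the replicate 2 control. The mean was 1597 ± 270.4 in Meis1cko and 1337 ± 81.1 in control DRGs (SD, n = 3 mice), a log2 difference of 0.24 (SE 0.15, interval -0.11 to 0.60). Its dimmer probe set, with intensities of only 21.4 to 59.0, gave -0.18, and the mean of both probe sets 0.03. Nr1d1 had 29.6, 37.0 and 39.6 in Meis1cko DRGs and 27.6, 32.3 and 33.8 in control DRGs, a log2 difference of 0.18 (SE 0.15, interval -0.19 to 0.54). Each Meis1cko array lay above the control array of the same number, and the groups overlapped. That order assumes pairing by number, and the share of all genes that have it is not given here. Without the Meis1cko replicate 3 array Nr1d1 stood at 0.09, below Per1 (0.25), Dbp (0.21) and Per2 (0.21). All 6 values of Nr1d1 lay below the median of every array, so Nr1d1 was measured at the dim end of the arrays. It was also the only member whose replicate 3 array was the highest in both genotypes.

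**Figure D1:**
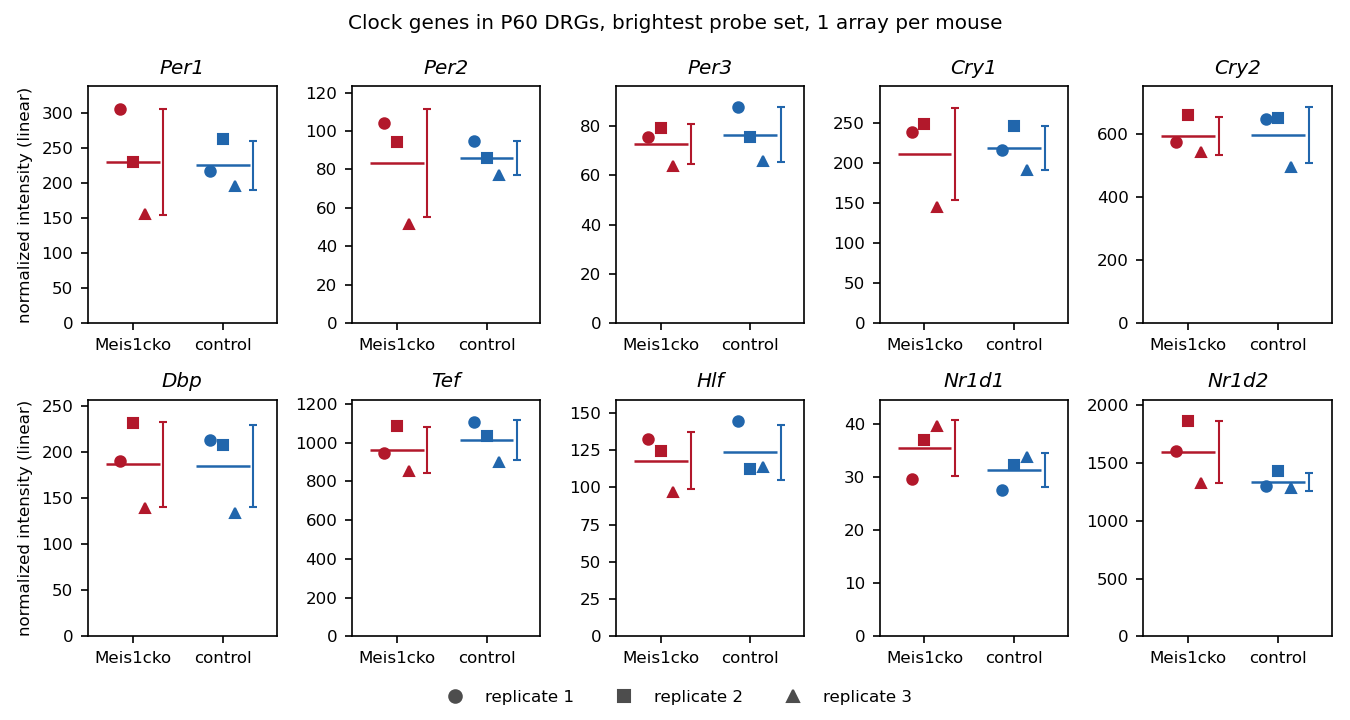
Normalized intensity (linear scale, axes from 0) of the brightest probe set of each clock gene on each array, with Meis1cko mice in red on the left and control mice in blue on the right. Symbols give the replicate number, horizontal lines the mean and bars the SD of 3 mice. The groups overlap in all 10 panels, and the triangles of replicate 3 are the lowest of their genotype for 8 genes, Hlf and Nr1d1 being the exceptions.

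Across the 10 genes, 0 passed the adjusted threshold between Meis1cko and control DRGs in limma (adjusted p = 1 for each), and 0 had an unadjusted p under 0.05. The background was close to nothing as well, since 0.0155% of all tested probe sets (7 of 45037) passed. With the replicate number as a block 37 probe sets passed and still 0 of the 10 genes did, the smallest adjusted p being 0.739 for Nr1d2. No member separated all Meis1cko from all control mice, where 6.94% of all genes did. The median log2 difference was -0.04, against -0.01 over all genes, and 3 of 10 values lay above 0 (Dbp, Nr1d1 and Nr1d2). The 12 dimmer probe sets gave values between -0.22 and 0.14, 6 of them above 0, and 0 passed. Without the replicate 3 arrays the median was 0.04 and 0 of the 10 genes passed. The widest 95% interval was that of Per2, from -0.73 to 0.51 on the log2 scale, so a difference of that size would not have been told from 0. The summed intensity of 5 fibroblast markers (5 of 5 measured, all at or above the median intensity) did differ between the genotypes without overlap, at 6393 to 8355 in Meis1cko DRGs and 9082 to 14352 in control DRGs. Singly, 2 of these 5 markers did not overlap, against 6.94% of all genes. The sums of the other cell types examined overlapped between the genotypes. The part of the fibroblast sum in the values of the clock genes was not tested.

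The other parts of the clock were compared through a list of 20 genes, of which 18 were measured, and 0 passed the adjusted threshold in either direction. The 4 with the smallest p were Timeless at a log2 difference of 0.49, Rora at 0.43, Arntl at 0.16 and Nfil3 at 0.19, and 13 of the 18 lay above 0, with a median of 0.07. Timeless, named for a clock gene of Drosophila and known in mice mainly for replication fork protection, had intensities of 1122, 860.3 and 752 in Meis1cko DRGs and 741, 678 and 525 in control DRGs. It was the only member of that list whose groups did not overlap (unadjusted p = 0.0411, adjusted p = 1 in limma), which is 5.56% of the list, against 6.94% of all genes. Its two-sided p in an exact permutation test was 0.1, below which a design of 3 mice per genotype cannot go. With the probe sets of each gene averaged, 0 of the 18 had an unadjusted p under 0.05 in limma, against 1 on the brightest probe sets. Rora, an activator of Arntl, had 325, 346 and 193 in Meis1cko DRGs and 205, 261 and 166 in control DRGs. Each Meis1cko array lay above the control array of its number, an order whose share over all genes is not given here. With the replicate block, the unadjusted p was 0.00858 and the adjusted p 0.489 for Rora, and 0.00240 and 0.297 for Timeless in limma. The block assumes that arrays of the same number form pairs. Arntl itself had 165, 137 and 136 in Meis1cko DRGs and 135, 140.4 and 115 in control DRGs, and Clock had 676, 617 and 505 in Meis1cko DRGs and 552, 616 and 595 in control DRGs.

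**Figure D2:**
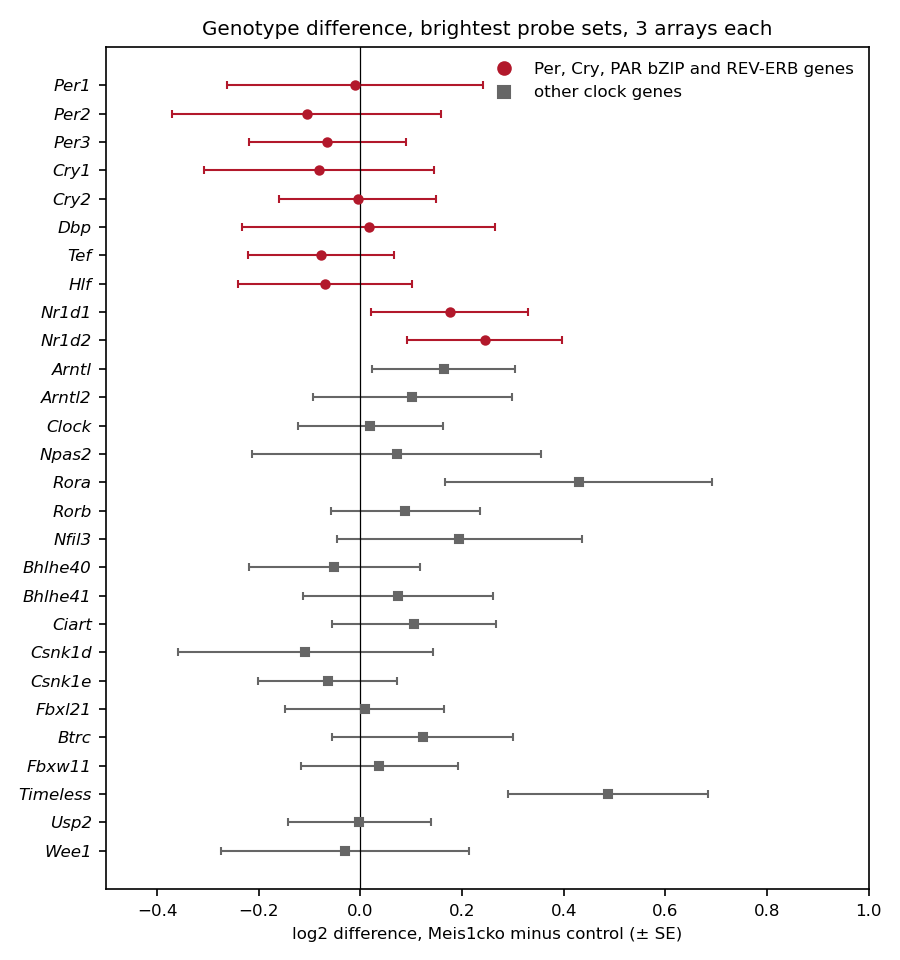
Log2 difference (Meis1cko minus control, 3 arrays each) with its standard error for the 10 clock genes (red circles) and the 18 other measured clock genes (grey squares), brightest probe sets. The circles lie between -0.11 (Per2) and 0.24 (Nr1d2), and the squares farthest from 0 are Timeless at 0.49 and Rora at 0.43.

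The arrays differed more by replicate number than by genotype. Of the variation of each gene over the 6 arrays on the log2 scale, a median of 75.5% lay between replicate numbers and 2.98% between genotypes for the 10 members, where the medians over all genes were 63.2% and 7.87%. The share by number was highest for Dbp (95.2%), Cry2 (83.2%) and Per3 (81.2%) and lowest for Nr1d2 (47.1%), the gene with the highest share by genotype (39.4%). In a limma F test of the numbers, 1 of the 10 genes passed (Dbp, adjusted p = 0.0362), close to the background of 10.4% of all probe sets. At an unadjusted p under 0.05 there were 3 of 10 (Per2, Cry1 and Dbp), against 28.0% of all genes on their brightest probe sets. Over all 22 probe sets of the members, 3 passed, against 10.4% of all probe sets. An unadjusted p under 0.05 in the F test was found for 11 of the 22, against a background of 28.7%. With the replicate 1 arrays left out 4 genes passed, against 21.8% of all probe sets, and with those of replicate 2 left out 2 did, against 13.6%. Without those of replicate 3 the count was 0 for the members and 1 over all 45037 probe sets. On those 4 arrays the members' median share was 39.0% by number and 20.6% by genotype, where the medians over all genes were 34.3% and 26.0%.

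The difference between numbers was mostly that of replicate 3 from the others. The replicate 3 array was the lowest in both genotypes for 8 of the 10 genes, all but Hlf and Nr1d1, where the background was 37.1% of all genes and 48.3% of those at or above the median intensity. After quantile normalization the count was 5 of 10, against 32.9% of all genes. Relative to replicates 1 and 2, the members' replicate 3 values had a median log2 difference of -0.29, against -0.09 over all genes and -0.17 over those at or above the median intensity, where 9 of the 10 members lie. The size differed between the genotypes for several genes, with -0.94 in Meis1cko and -0.22 in control DRGs for Per2, -0.77 in Meis1cko and -0.29 in control DRGs for Per1, and -0.75 in Meis1cko and -0.27 in control DRGs for Cry1. It ran the other way for Cry2, at -0.18 in Meis1cko and -0.39 in control DRGs, and less so for Dbp and Per3, while Tef had -0.25 in both. These differences between the genotypes were not tested. Npas2 and Nfil3 were, like Dbp, lowest at replicate 3 in both genotypes. Npas2 had 44.8 on the Meis1cko and 42.8 on the control array of replicate 3 and 57.6 to 83.5 on the others, with 98.8% of its variation between numbers. Its mean intensity lay below the median of all tested probe sets. Of the 18 other measured clock genes, 13 were lowest at replicate 3 in both genotypes, against 37.1% of all genes. In the F test 3 of the 18 passed (Npas2, Rora and Csnk1d), against 10.4% of all probe sets. An unadjusted p under 0.05 in that test was found for 11 of the 18, against 28.0% of all genes.

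Several other measures moved with the replicate number on the same arrays. Besides the Actb control probe sets, the summed intensity of the 4 skeletal muscle markers (4 of 4 measured, all at or above the median intensity) was 312 on the Meis1cko and 183 on the control array of replicate 3, against 591 to 2310.0 on the other 4. That of the adipocyte markers (2 of 4 measured, 1 at or above the median intensity) was 60.7 and 40.5, against 103 to 195. The 8 sensory neuron markers summed to 64625 in Meis1cko and 62552 in control DRGs of replicate 3, against 53807 to 56494.5 on the others. No listed marker was at 0 in this table, whose lowest value is 5.56. In whole ganglia, fewer cells of a type and less RNA per cell cannot be told apart. The part of these measures in the values of the clock genes was not tested.

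Probe sets of the same gene moved in opposite directions at replicate 3. Dbp gave the clearest case, because its brightest probe set was lowest at replicate 3 while the other, with intensities of 62.7, 72.7 and 116 in Meis1cko DRGs and 73.5, 71.8 and 98.3 in control DRGs, was highest there. Against replicates 1 and 2, the brightest stood at -0.59 in Meis1cko and -0.66 in control DRGs on the log2 scale, and the dimmer at 0.78 in Meis1cko and 0.44 in control DRGs. The F test of the dimmer one gave an adjusted p of 0.0546 in limma. For Nr1d2, the dimmer probe set had 21.4, 23.2 and 48.4 in Meis1cko DRGs and 27.7, 21.5 and 59.0 in control DRGs. For scale, the 25th percentile of the arrays lay between 20.8 and 22.6. This probe set was highest at replicate 3 in each genotype (F test, adjusted p = 0.00535 in limma), while the brightest was lowest there. Tef had a dimmer probe set with 76.1, 91.3 and 124 in Meis1cko DRGs and 77.1, 81.9 and 214 in control DRGs (F test, adjusted p = 0.0396 in limma), and another that was lowest at replicate 3, with 33.3 in Meis1cko and 32.6 in control DRGs. Per2 had a dimmer probe set with 56.2 in Meis1cko and 53.9 in control DRGs at replicate 3 and 28.7 to 45.1 on the other arrays. Hlf is the contrasting case, since both of its probe sets lay below the mean of replicates 1 and 2 at replicate 3. The brightest stood at -0.41 in Meis1cko and -0.17 in control DRGs. The dimmer was lowest at replicate 3, with 38.2 in Meis1cko and 46.8 in control DRGs against 63.7 to 80.4 on the others.

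Of the 6 members with more than 1 probe set, 4 (Per3, Dbp, Tef and Nr1d2) had the brightest below and the next brightest above replicates 1 and 2 in both genotypes, where 19.1% of all genes with 2 or more probe sets did. Of the 12 dimmer probe sets of the members, 6 were highest and 3 lowest at replicate 3 in both genotypes. Only 1 of Dbp and 1 of Tef had a mean intensity at or above the median of all tested probe sets. The other dimmer ones lay below it, which also limits the averages over probe sets. When the probe sets of each gene were averaged, 4 of the 10 genes were lowest at replicate 3 in both genotypes, against 30.3% of all genes. The median log2 difference of replicate 3 was then -0.05, against -0.03 over all genes, and the members' median share by number was 69.3%. For Per2, Per3, Dbp, Tef and Nr1d2, the direction in which the values followed the replicate number depended on the probe set that was read, while Per1, Cry1, Cry2 and Nr1d1 have a single one. Where these probe sets lie along the transcripts was not analysed here.

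**Figure D3:**
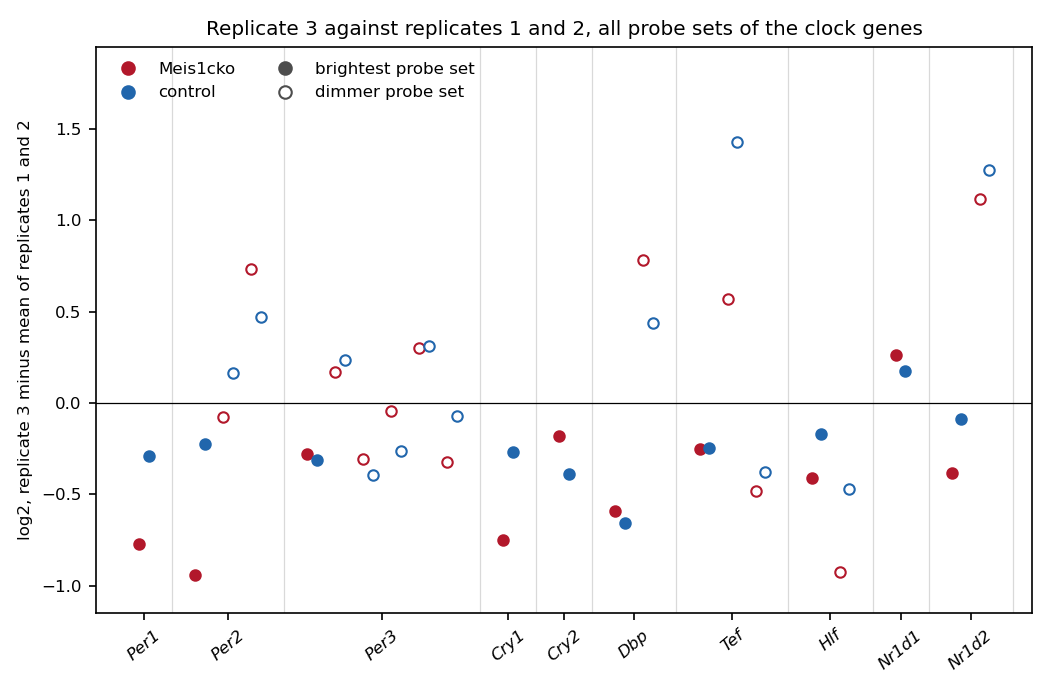
Log2 difference of the replicate 3 array from the mean of replicates 1 and 2, in Meis1cko (red) and control (blue) DRGs, for all 22 probe sets of the clock genes. Filled points are the brightest probe set of a gene and open points the dimmer ones. The filled points lie below 0 except for Nr1d1, whereas open points of Dbp (0.78 and 0.44), Tef (0.57 and 1.43) and Nr1d2 (1.12 and 1.27) lie above it.

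Pairs of genes that peak at opposite times of day were read against each other on each array. For 8 pairs, each gene was set against its own mean over the 6 arrays, and the signs of both deviations were compared. They were opposite in 21 of the 48 combinations of pair and array, and no pair was opposite on all 6 arrays. The same count was not made for other pairs of genes, so these counts describe the arrays and do not show what is particular to daily phase. Without the replicate 3 arrays they were opposite in 14 of 32. Dbp and Nfil3, the activator and the repressor of D-boxes, deviated in the same direction on every array. Nfil3 had intensities of 163, 114 and 89.1 in Meis1cko DRGs and 115, 115 and 84.1 in control DRGs, so that it was lowest at replicate 3 like Dbp. Dbp, Per2 and Per3 were each opposite to Arntl on 2 of 6 arrays, and Nr1d2 to Clock on 2 of 6. Nr1d1 was opposite to Arntl and to Cry1 on 5 of 6 arrays each and to Npas2 on 3 of 6.

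The log2 gap between Nr1d1 and Arntl, as deviations, was -0.43, 0.17 and 0.28 in Meis1cko DRGs and -0.23, -0.07 and 0.28 in control DRGs, so that it was widest in favour of Nr1d1 on both replicate 3 arrays. Its mean was 0.01 ± 0.38 in Meis1cko and -0.01 ± 0.26 in control DRGs (SD, n = 3 mice), and the groups overlapped. The gap between Dbp and Arntl ran the other way, at -0.20, 0.35 and -0.37 in Meis1cko DRGs and 0.26, 0.16 and -0.19 in control DRGs, with both replicate 3 arrays below 0. On their brightest probe sets, Nr1d1 and Dbp, which peak at nearby times of day in mouse tissues, thus placed the replicate 3 arrays on opposite sides of Arntl. The dimmer probe set of Dbp was highest at replicate 3 in both genotypes (0.78 in Meis1cko and 0.44 in control DRGs). Nr1d1 lay at the dim end of the arrays, so this reading depends on the probe set. No correlation over the 6 arrays was tested for these pairs, because the replicate 3 arrays form a cluster of their own.

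**Figure D4:**
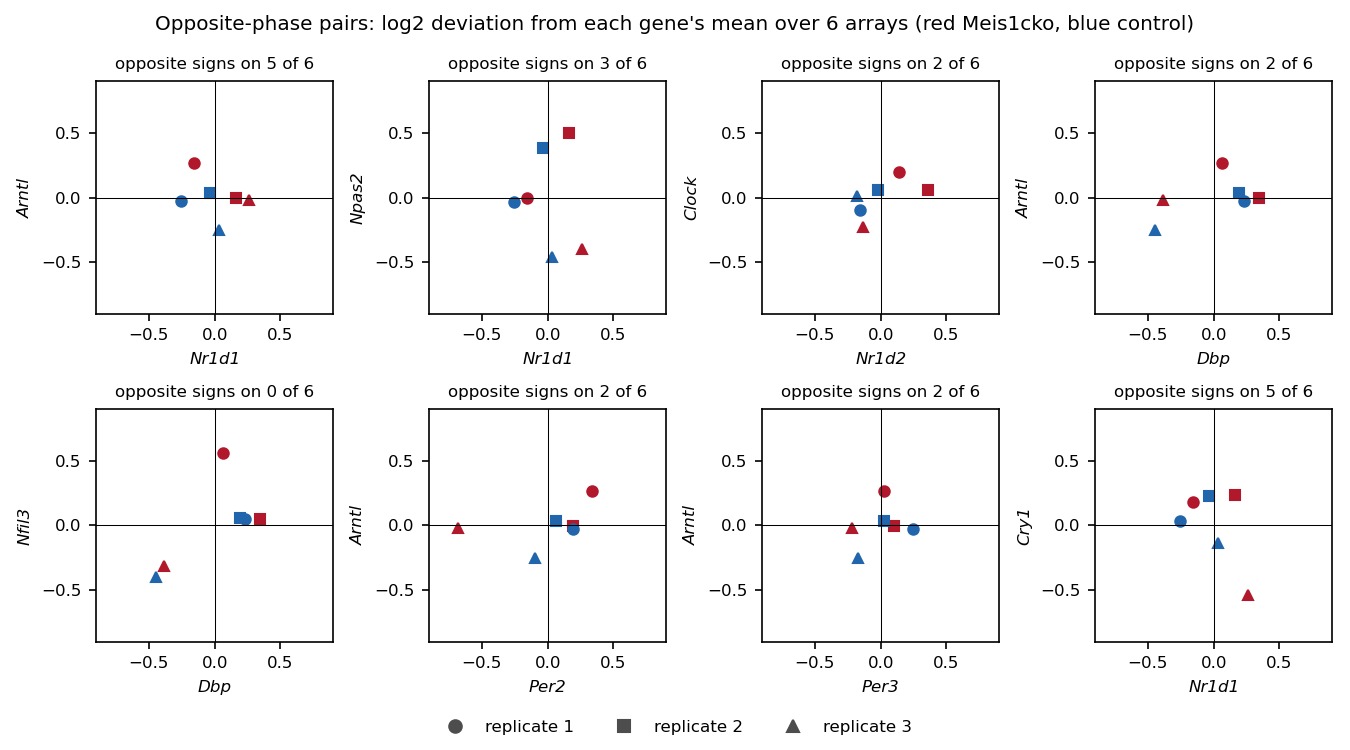
Log2 deviation from the gene's own mean over 6 arrays for 8 pairs of genes with opposite daily phases, the first gene on the horizontal and the second on the vertical axis, with Meis1cko in red, control in blue and the replicate number as the symbol. Points at the upper left and lower right have opposite signs, which holds on 5 of 6 arrays for Nr1d1 with Arntl and with Cry1 and on 0 of 6 for Dbp with Nfil3.

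Among members at or above the median intensity, Per2 varied most over the 6 arrays (SD 0.36 on the log2 scale). Over these 6 values its Pearson correlation was highest with Phf11d, Ccdc167, Mrpl33, D130020L05Rik and Zbtb24 (0.993 to 0.995) and lowest with Plppr2, Atat1, Lgals2, Carmil2 and Pars2 (-0.989 to -0.982), out of 12152 genes compared. Of these genes, 1070 had a correlation over 0.9, and the points share the replicate 3 arrays, so the values describe a pattern that many genes have. Cry1 was the member most like Per2, at 0.928 and in place 584 of 12152, followed by Hlf at 0.875 and Per1 at 0.874. Nr1d2 at 0.494 and Cry2 at 0.515 were the least like it among the members compared. Nr1d1, which lies below the median intensity, was not among them. Without the replicate 3 arrays, over only 4 values, Cry1 stood at -0.20, Hlf at 0.633, Per1 at 0.411 and Cry2 at -0.80, so the likeness of Cry1 to Per2 rests on the replicate 3 arrays.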

How the data were processed

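Total RNA of cervical, thoracic and lumbar DRGs was hybridized to Affymetrix mouse genome arrays. The authors read the images with the GeneChip Command Console and analysed them in GeneSpring. Each deposited value is an intensity that the authors had normalized, not on a log scale, and how probes were summarised and normalized is not given in the sources used here. The 64 control probe sets were left out, and the rest were taken to log2 with no offset. Probe sets were named from the platform's annotation. The genotypes were tested in limma 3.58.1 (R 4.3.3; lmFit, then eBayes) over all 45037 probe sets, with Benjamini-Hochberg adjustment and a threshold of 0.05. The replicate numbers were tested with an F test in a separate limma fit with genotype as a term. Scripts were tested on simulated data. P-values of the genotype comparison without a block measure the difference against the spread between 3 mice per genotype. Those of the F test and of the replicate block measure it against what remains after genotype and replicate number. The number of arrays limits the precision.

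As deviations from the group means, the replicate 1 arrays of Meis1cko and control DRGs correlated at 0.424. The replicate 2 arrays did so at 0.535 and the replicate 3 arrays at 0.766. Arrays of unlike number correlated at -0.60 to 0.34. Meis1cko replicate 1 with control replicate 2 gave 0.34, and Meis1cko replicate 2 with control replicate 1 gave 0.32. The values thus set replicate 3 apart and do not show which arrays of replicates 1 and 2 belong together. Pairing by number is therefore an assumption, on which the replicate block and the F test rest. The members and lists were chosen with earlier results of these data known. The rule for named genes takes all members, from the list of other clock genes the 4 with the smallest p and those of the pairs, and the 5 genes most and least like the most variable member. Csnk1d, the dimmer probe sets given singly, and the glucocorticoid-induced and immediate early genes given with values were named after their values were seen. Alternatives were the replicate block, array weights, a trend in eBayes, the methods' t-test, quantile and median scaling, a filter at the median intensity, an offset of 16, averaged probe sets and each array or number left out.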

Additional observations from a re-analysis of the deposited data

How the results depend on the processing

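The call for the clock genes did not change. With the replicate block, with each other alternative and with arrays left out, 0 of the 10 members and 0 of the 18 other clock genes passed between Meis1cko and control DRGs, and the smallest adjusted p among the members was 0.153 (Nr1d2, array weights). The count over all probe sets was 7 and ranged from 0 to 177 under alternatives, with 37 under the block, 177 with array weights, 11 after quantile normalization, 1 with the offset, 0 in the methods' t-test after Benjamini-Hochberg adjustment and 0 to 26 with arrays left out. At the methods' own threshold, an unadjusted p with a minimum fold, that t-test called 92 probe sets higher and 93 lower in Meis1cko DRGs (0.411% of all) and 0 of the 10 members. Of 179 log2 differences of members under alternatives, 34 changed sign, none of them a called value. With array weights, Nr1d2 stood at 0.40 and Nr1d1 at 0.22, both at an unadjusted p under 0.05 in limma (0.00446 and 0.0436), and Per2 had 0.092, Per3 0.032, Cry1 0.062, Cry2 0.051, Tef 0.052 and Hlf 0.059, and Cry2 had 0.013 after quantile normalization and 0.0018 with arrays centred on the median. With arrays left out, Per1 ranged from -0.27 to 0.25, Per2 from -0.30 to 0.21, Per3 from -0.17 to 0.041, Cry1 from -0.22 to 0.17, Cry2 from -0.14 to 0.078, Dbp from -0.20 to 0.21, Hlf from -0.18 to 0.068 and Tef from -0.17 to 0.0055, while Nr1d1 (0.09 to 0.30) and Nr1d2 (0.13 to 0.37) kept their sign in these fits. In the F test of the replicate numbers, 0 members passed after quantile normalization (9.89% of all probe sets), 0 to 4 with the arrays of a number left out (1 to 9836 probe sets), and 1 each with the trend (14.9%), the filter (22.7%) and the offset (11.4%). The median share of variation by number ranged from 66.8% to 75.5%, and opposite signs in the pairs from 21 to 27 of 48. With the arrays of a number left out, added after the data were seen, the share ranged from 39.0% to 78.4%, lowest without replicate 3, and the opposite signs from 11 to 15 of 32. The members lowest at replicate 3, recounted after the data were seen, numbered 8 with arrays centred, 5 after quantile normalization and 4 with averaged probe sets. The causes of these changes were not tested.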

Other observations

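Per1 is also induced by glucocorticoids and by neuronal activity, and genes of both responses were read on the same arrays. Of 8 glucocorticoid-induced genes, Per1 included, 0 passed between Meis1cko and control DRGs, with a median log2 difference of -0.05. Zbtb16, a transcription factor gene induced by glucocorticoids, had intensities of 228, 254 and 146 in Meis1cko DRGs and 73.4, 126 and 154 in control DRGs, a log2 difference of 0.86 (SE 0.32, adjusted p = 1 in limma) and of 1.32 without the replicate 3 arrays (adjusted p = 0.382 in limma). Ddit4, a stress-induced inhibitor of mTORC1, had 1858, 1692 and 1279 in Meis1cko DRGs and 2189, 2085 and 2176 in control DRGs. Its groups did not overlap, which held for 1 of the 8 genes of this list and for 6.94% of all genes. The log2 difference of Ddit4 was -0.43 (SE 0.16, adjusted p = 1 in limma), with -0.27 without the replicate 3 arrays. Fkbp5, an early glucocorticoid target, had 1195, 1159 and 990.3 in Meis1cko DRGs and 838, 914 and 1176 in control DRGs. The median share of variation by replicate number was 43.4% in this list, and 3 of the 8 genes were lowest at replicate 3 in both genotypes, against 37.1% of all genes.

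Of the 8 immediate early genes, 0 passed between the genotypes, with a median log2 difference of 0.04, and 6 were lowest at replicate 3 in both genotypes, against 37.1% of all genes and 48.3% of those at or above the median intensity. Fos had 463, 561 and 299 in Meis1cko DRGs and 412, 597 and 261 in control DRGs, with 96.7% of its variation between replicate numbers (F test, adjusted p = 0.00920 in limma, and 0.619 without the replicate 3 arrays). Egr1 had 666, 796 and 569 in Meis1cko DRGs and 1249, 1274 and 325 in control DRGs.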
